A study of Mus musculus with 35 samples.

Results

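The transcripts described here were 44 mouse genes of mitosis, the step of the cell cycle in which duplicated chromosomes are separated and the cell divides. They were taken from a list of names, for their known work in mitotic entry, the spindle checkpoint, the kinetochore, chromosome condensation, the spindle and cytokinesis. All 44 were found among the 21236 genes of the counts table. RNA was sequenced from microglia sorted from the midbrain, the striatum and the prefrontal cortex (PFC) of 12 mice, 6 males and 6 females aged 17 to 18 weeks. All mice were heterozygous for Tmem119-2A-CreERT2, which drives a tamoxifen-inducible Cre recombinase from the microglial gene Tmem119, and for Ai14(RCL-tdTomato)-D, a tdTomato reporter that needs Cre. All received tamoxifen at 75 mg/kg for 5 days, and tdTomato-positive cells were sorted 10 to 21 days later. There was no untreated group, so every region and both sexes carried the same alleles and the same treatment, and each library is a pool of the cells that recombined in 1 region of 1 mouse. The 35 samples were 12 from the midbrain, 12 from the striatum and 11 from the PFC, since the PFC of male mouse 3 was not among them.

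In a cycling cell the kinase Cdk1 with its cyclins starts mitosis, condensin packs the chromosomes, kinetochores attach them to the spindle, and the checkpoint holds the cell until all are attached. The anaphase-promoting complex then destroys cyclin B and securin, and the central spindle and contractile ring split the cell. Most of these genes are silent in resting cells and switched on together late in the cycle, and their transcripts are widely used to estimate how many cells of a tissue are dividing. Adult microglia are long-lived cells that renew themselves slowly by local division.

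Total counts ranged from 37680501 to 54131421 per sample, and 16725 to 19671 genes had at least 1 count. Between 33 and 44 of the mitosis genes were detected per sample, the fewest in the PFC of mouse 1. Microglial markers were abundant in every sample. Tmem119 was at 3112 ± 263 CPM (counts of a gene scaled to the size of its library) in midbrain samples (SD, n = 12), at 3334 ± 278 in those of the striatum (n = 12) and at 3363 ± 299 in those of the PFC (n = 11). The lowest value of P2ry12, a receptor of homeostatic microglia, was 5481 CPM, and that of Csf1r, the receptor they need to survive, 4923 CPM. The striatum sample of mouse 3 stood in a column named for the PFC while its labels gave striatum, and it was taken as striatum. Without it the midbrain exceeded the PFC for the same number of mitosis genes, 34, and exceeded the striatum for 19 in place of 21.

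Transcripts of mitosis were most abundant in midbrain microglia, intermediate in the striatum and lowest in the PFC. Summed over the 44 genes, the midbrain samples had 120.9, 189.9 and 230.6 CPM as lowest, median and highest value, the striatum samples 108.0, 133.5 and 169.5, and the PFC samples 97.0, 112.2 and 135.0. The means were 188 ± 30.6 CPM in the midbrain (SD, n = 12), 135 ± 16 in the striatum (n = 12) and 114 ± 13.6 in the PFC (n = 11), so that the midbrain held 1.65 times the PFC sum and 1.39 times the striatum sum. The ranges of the midbrain and the PFC overlapped through a single midbrain sample at the low end, that of female mouse 12. Ncaph, which encodes a condensin subunit, made up 22.2% of the sum on its own and was the most abundant of the genes. With Ncaph left out, a choice made after seeing the data, the means were 162, 100 and 77.0 CPM and the ratio of midbrain to PFC was 2.11. In bulk samples, fewer cells that carry a transcript and less of it per cell cannot be told apart.

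**Figure D1:**
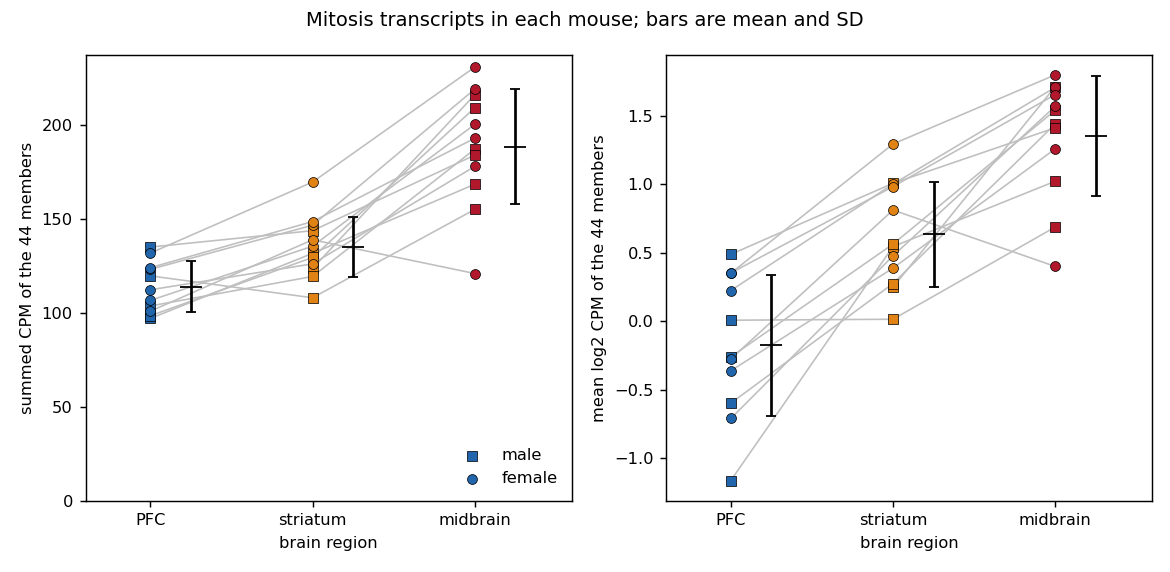
Summed CPM of the 44 mitosis genes (y axis) in the midbrain, striatum and PFC (x axis), 1 line per mouse, with squares for males, circles for females and bars for the mean and SD; the second panel shows the mean log2 CPM of the same genes. The midbrain was above the PFC in 11 of 11 mice, with mean sums of 188 and 114 CPM.

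Because regions were taken from the same animals, the order could be followed within each mouse. The midbrain sum exceeded the PFC sum in 11 of 11 mice, by 72.0 ± 28.3 CPM (mean ± SD, range 20.1 to 110.6). It exceeded the striatum sum in 11 of 12 mice, by 53.3 ± 28 CPM. The exception was female mouse 12, with 120.9 CPM in the midbrain and 138.8 in the striatum. The striatum exceeded the PFC in 10 of 11 mice, by 22.2 ± 14.9 CPM, and the exception was male mouse 5, with 108.0 CPM in the striatum and 119.6 in the PFC. The full order of midbrain, striatum and PFC held in 9 of the 11 mice with all 3 regions. Female mouse 4 had the highest sum in both the midbrain and the striatum and the second highest in the PFC (131.7 CPM).

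The mean CPM followed the order midbrain, striatum, PFC in 38 of the 44 genes, and was highest in the midbrain in 40. The reverse order was seen for 2, Ncaph and Mad2l1. These orders of means were not counted over all genes. A main effect of brain region was found for 34 of the 44 genes (edgeR's quasi-likelihood test, adjusted p under 0.05 over all 21236 genes), where 8.89% of all genes tested had one. The levels were low throughout, since 22 genes had a mean of at least 1 CPM in every region, 11 reached it in the midbrain and striatum only, 7 in the midbrain only, and 4 (Ttk, Cenpe, Cenpf and Mki67) nowhere. No filter on low values was applied beyond that of the deposited table, so all 44 were tested. In 18 genes at least 1 sample had 0 counts, and 21 fell below 3 counts in at least 1 sample. Per kilobase of exon, Ncaph was again the most abundant at 7.55 FPKM over all samples, followed by Ccna2 at 3.21, Tacc3 at 2.06 and Cdc20 at 2.04, and the median of the 44 was 0.489.

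**Figure D2:**
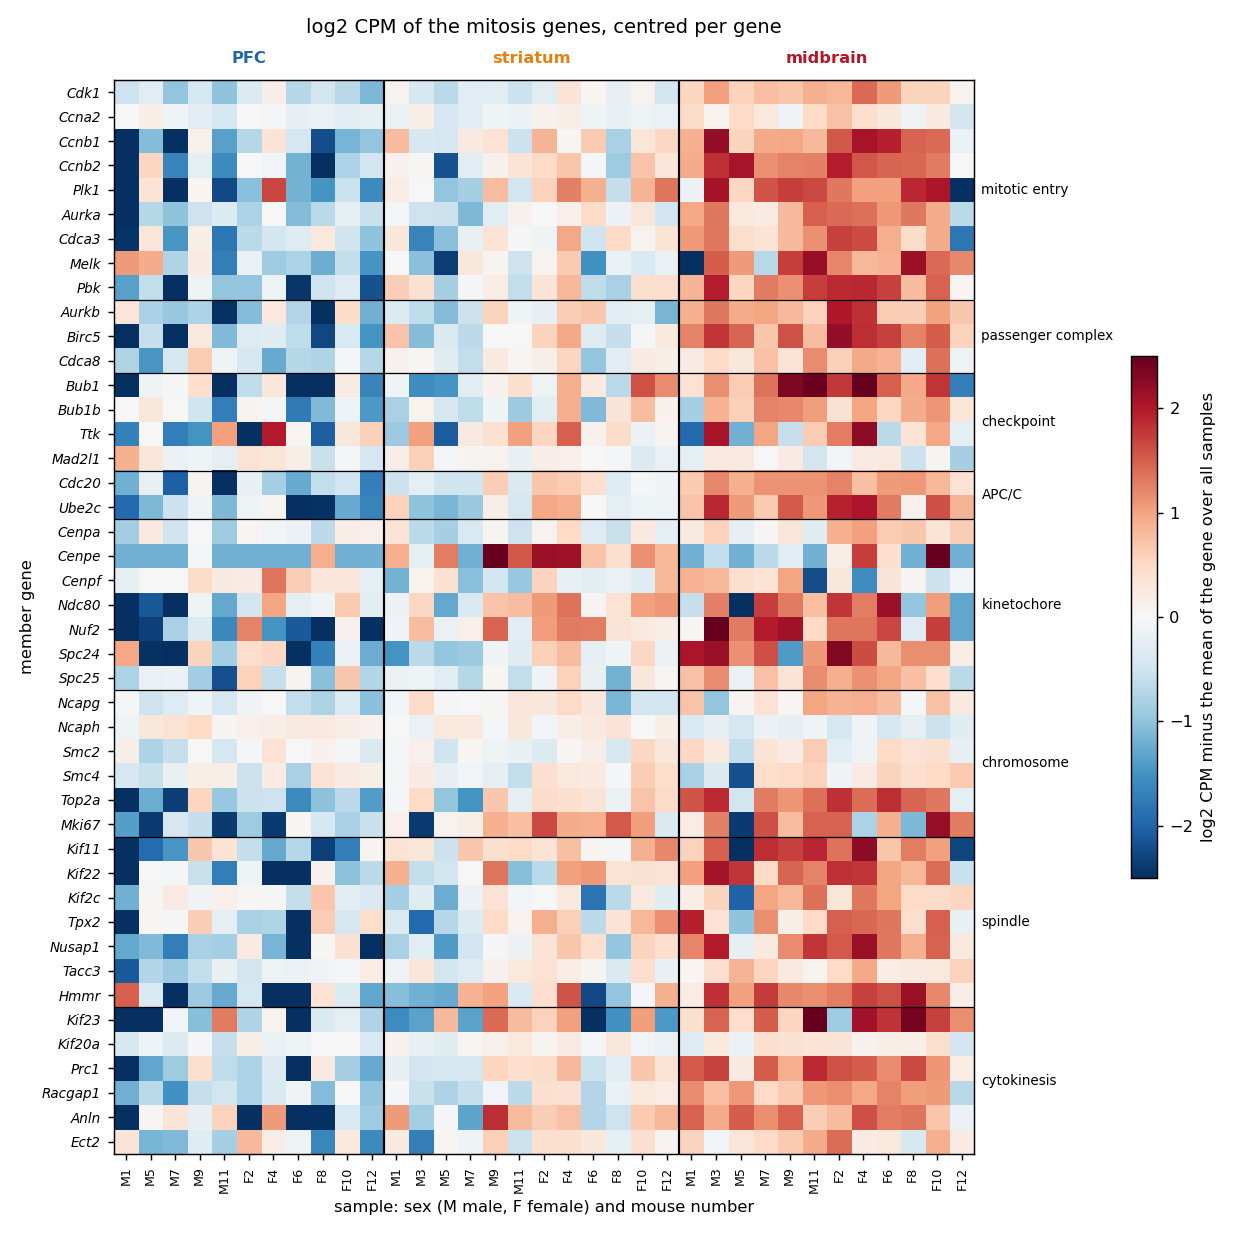
Log2 CPM of the 44 mitosis genes (rows, grouped by role) in the 35 samples (columns, grouped by region), each row shown relative to its own mean over the samples. The midbrain columns are above the row mean for most genes, and Ncaph runs the other way.

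The first comparison asked which mitosis transcripts differed between the midbrain and the PFC. Of the 44, 34 were higher in the midbrain, where 3.64% of all genes tested were higher, and 1, Ncaph, was lower, where 2.88% of all genes were. The median log2 fold change was 1.63 (quartiles 0.85 and 2.16), beside -0.01 over all genes. The 9 genes that passed no threshold in this comparison were Ttk, Mad2l1, Cenpe, Cenpf, Smc2, Smc4, Kif2c, Tpx2 and Anln. The ranges of the samples did not overlap for 5 genes, Pbk, Aurkb, Birc5, Cdc20 and Ube2c, each higher in every midbrain sample than in any PFC sample, where 0.348% of all genes were. The midbrain value was the higher in all 11 mice for 18 genes and in at least 10 mice for 29. These counts within mice were not made for all genes of the table.

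The second comparison set the midbrain against the striatum. The midbrain was higher for 21 of the 44 genes, where 3.27% of all genes were higher, and lower for 1, Ncaph again, where 4.18% were lower. The median log2 fold change was 0.90 (quartiles 0.45 and 1.2), beside -0.01 over all genes. No mitosis gene was higher in every midbrain sample than in any striatum sample, where 0.155% of all genes were. Within mice, Cdk1, Birc5, Cdc20 and Ube2c were higher in the midbrain of all 12, and the share of all genes with this was not counted. Counting Ncaph, 21 genes passed in both comparisons, 14 against the PFC only, 1 (Kif2c) against the striatum only, and 8 in neither.

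The third comparison set the striatum against the PFC. No mitosis gene passed the threshold in either direction with edgeR, where 0.391% of all genes were higher and 0.179% lower in the striatum. An unadjusted p under 0.05 was reached by 20 of the 44, and by 2467 of all 21236 genes. The fitted change was higher in the striatum for 40 of the 44, with a median of 0.54 on the log2 scale beside 0.01 over all genes. DESeq2 called 4 mitosis genes higher in the striatum, limma-voom 9, and edgeR with the mouse as a block 4, namely Cdc20 (adjusted p = 0.013), Ube2c (0.026), Cenpe (0.026) and Nuf2 (0.0087). These alternatives also called more of all 21236 genes, counting both directions. DESeq2 called 342, the block 614 and limma-voom a number between these, where edgeR without the block called 121. Without the block the smallest adjusted p was 0.059, for Cenpe.

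**Figure D3:**
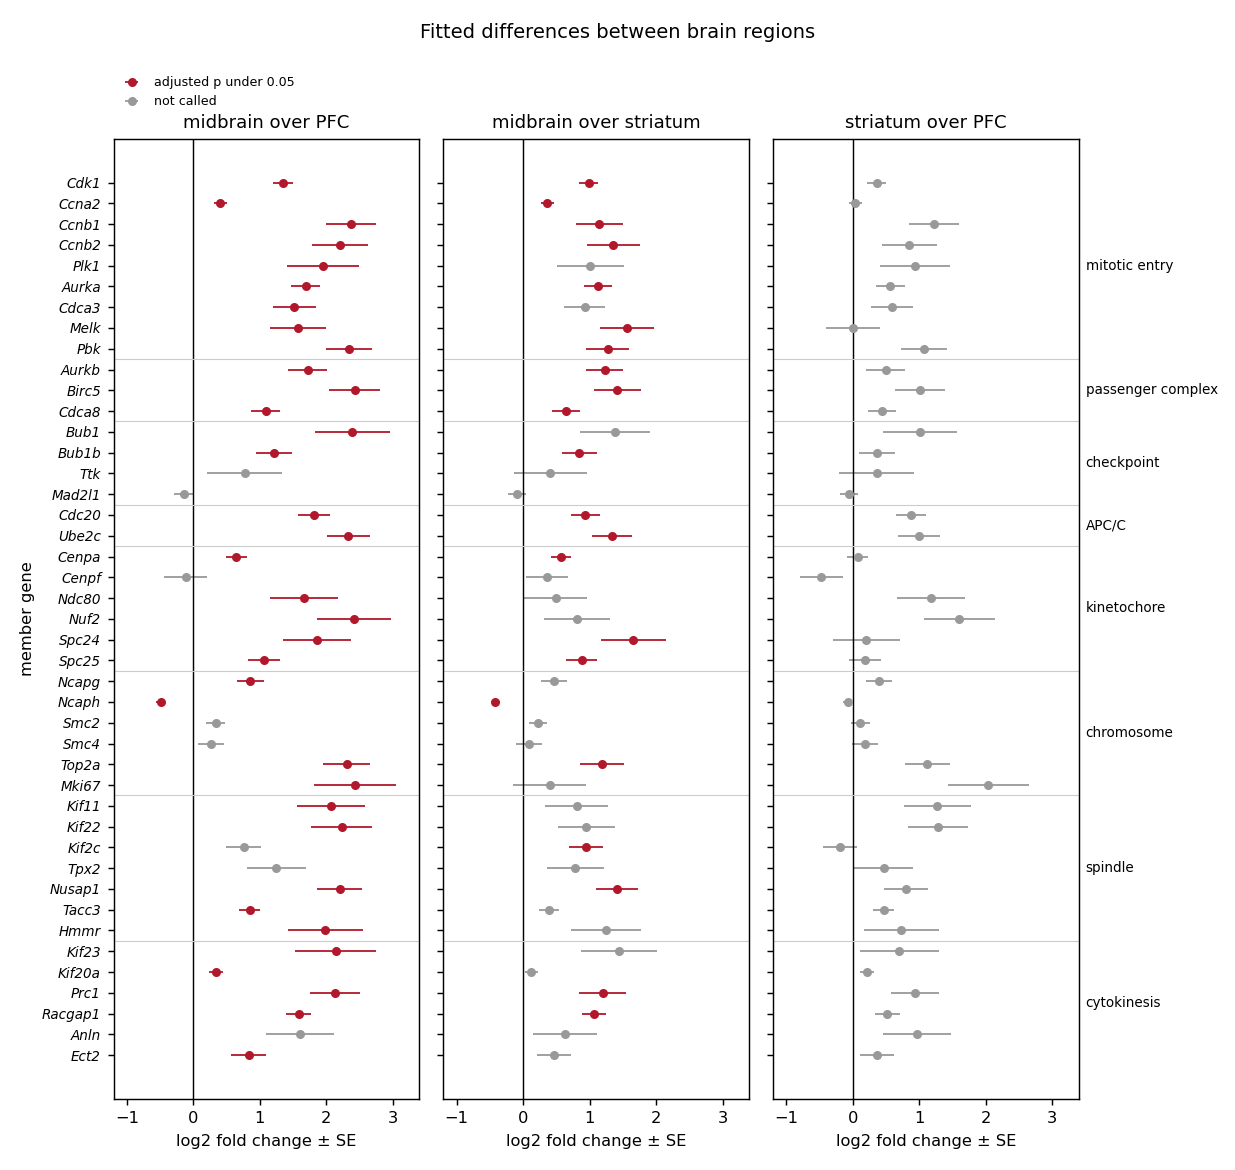
Fitted log2 fold changes with standard errors (x axis) of the mitosis genes (rows, grouped by role) for midbrain over PFC, midbrain over striatum and striatum over PFC, with red points at an adjusted p under 0.05 and grey points otherwise. Cenpe, mostly under 3 counts, is not drawn; the median is 1.63 for midbrain over PFC, 0.90 for midbrain over striatum and 0.54 for striatum over PFC.

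Promoters of many cell cycle genes carry a CHR element, read by the DREAM complex that silences them in resting cells, and CCAAT boxes bound by NF-Y. Both motifs were searched in RefSeq promoters (GRCm38.p6, 250 bases before to 50 after the start), which matched 37 of the 44 genes. The CHR was taken as TTTGAA or TTTAAA and the CCAAT box as CCAAT, each on either strand, and adjoining motifs were allowed to share letters. A CHR was present in 30 of the 37 (81.1%, against 27.8% of 27025 genes with a promoter), CCAAT in 27 (73% against 37.9%), and both in 26 (70.3% against 10.9%). The letters GGCGG, on either strand, were in 33 (89.2% against 49%). Of the 26 genes with both motifs, 22 were higher in the midbrain than in the PFC with a median of 1.75, of the 5 with only 1 of them 3 were higher with a median of 1.66, and of the 6 with neither (Melk, Mad2l1, Nuf2, Ncaph, Nusap1 and Tacc3) 4 were higher with a median of 1.21 and a range from -0.49 to 2.41. A match of letters is a description and not a bound site.

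Promoters are printed for the called genes with the highest mean CPM in 4 of the roles, and they show motif-bearing and motif-free examples side by side. Each run is the 250 bases before the RefSeq start, 5′ to 3′ on the strand of the gene, with CHR and CCAAT letters (either strand) in capitals. Cdc20 (chr4:118437344-118437593, GRCm38.p6, minus strand) holds TTTGAA 18 bases before the start and CCAAT 53 and 8 bases before it. Cenpa (chr5:30666636-30666885, plus strand) holds TTTAAA 17 bases before the start and ATTGG, the reverse complement of CCAAT, 109 and 86 bases before it, with a further TTTGAA 17 bases after the start. Ncaph (chr2:127133955-127134204, minus strand) and Tacc3 (chr5:33657878-33658127, plus strand) hold neither motif, and of these only Ncaph was lower in the midbrain.
Cdc20: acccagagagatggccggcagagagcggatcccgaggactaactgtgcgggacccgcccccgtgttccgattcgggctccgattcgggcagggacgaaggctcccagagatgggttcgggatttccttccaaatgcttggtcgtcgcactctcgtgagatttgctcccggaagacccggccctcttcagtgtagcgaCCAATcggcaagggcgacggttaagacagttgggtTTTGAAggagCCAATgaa
Cenpa: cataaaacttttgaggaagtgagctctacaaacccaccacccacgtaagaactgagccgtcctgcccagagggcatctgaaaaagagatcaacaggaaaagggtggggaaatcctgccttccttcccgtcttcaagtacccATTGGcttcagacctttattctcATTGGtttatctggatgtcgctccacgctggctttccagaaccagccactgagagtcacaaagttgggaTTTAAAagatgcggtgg
Ncaph: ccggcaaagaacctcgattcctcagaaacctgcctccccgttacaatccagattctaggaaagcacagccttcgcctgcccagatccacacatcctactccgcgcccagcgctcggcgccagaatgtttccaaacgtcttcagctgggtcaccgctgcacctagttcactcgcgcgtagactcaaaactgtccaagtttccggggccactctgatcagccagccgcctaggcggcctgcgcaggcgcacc
Tacc3: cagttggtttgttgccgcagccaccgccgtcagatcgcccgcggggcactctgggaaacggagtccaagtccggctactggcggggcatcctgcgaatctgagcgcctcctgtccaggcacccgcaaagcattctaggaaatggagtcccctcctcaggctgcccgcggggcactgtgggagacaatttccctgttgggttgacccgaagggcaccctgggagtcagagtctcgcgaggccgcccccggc

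Among the 9 genes of mitotic entry, all 9 were higher in the midbrain than in the PFC (median log2 fold change 1.69) and 7 than in the striatum (1.13). Cdk1, the kinase that starts mitosis (chr10:69335146-69352938, GRCm38, minus strand), had midbrain values of 4.38, 6.87 and 11.1 CPM as lowest, median and highest, striatum values of 2.58, 3.44 and 5.2, and PFC values of 1.87, 2.86 and 4.65. Only the midbrain sample of mouse 12 reached into the ranges of the other regions. Cdk1 rose by 1.35 ± 0.15 on the log2 scale over the PFC (SE, adjusted p = 2.5e-08, higher in 11 of 11 mice) and by 0.98 ± 0.14 over the striatum (adjusted p = 1.2e-05, 12 of 12 mice). Aurka, the kinase of the centrosomes, ranged from 1.63 to 7.46 CPM in the midbrain (median 5.38), 1.17 to 3.64 in the striatum (median 2.47) and 0.430 to 2.61 in the PFC (median 1.63). It was higher over the PFC by 1.69 ± 0.22 (adjusted p = 1.3e-06, 10 of 11 mice) and over the striatum by 1.13 ± 0.21 (adjusted p = 0.00057, 11 of 12 mice), with mouse 12 as the low midbrain sample.

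The cyclins drive Cdk1 and are made anew in each cycle. Ccna2, cyclin A2 and the second most abundant of the 44, ranged from 9.26 to 21.2 CPM in the midbrain (median 15.6), 9.64 to 14.5 in the striatum (median 11.6) and 9.39 to 14.4 in the PFC (median 11.4), and the ranges overlapped. Its change was the smallest of the entry genes, 0.40 ± 0.10 over the PFC (adjusted p = 0.0097, 10 of 11 mice) and 0.36 ± 0.10 over the striatum (adjusted p = 0.019, 10 of 12 mice). Ccnb1, cyclin B1, ranged from 1.29 to 6.84 CPM in the midbrain (median 3.43), 0.818 to 2.67 in the striatum (median 1.76) and 0 to 1.84 in the PFC (median 0.667), where 1 sample had no count. Ccnb1 rose by 2.37 ± 0.38 over the PFC (adjusted p = 3.9e-05, 11 of 11 mice) and by 1.14 ± 0.35 over the striatum (adjusted p = 0.038, 11 of 12 mice). Ccnb2, cyclin B2, rose by 2.21 ± 0.42 over the PFC (adjusted p = 0.00047). Pbk, a mitotic kinase, ranged from 2.5 to 9.51 CPM in the midbrain (median 6.40), 1.34 to 4.34 in the striatum (median 2.91) and 0 to 2.24 in the PFC (median 1.21), with no overlap of midbrain and PFC. It rose by 2.34 ± 0.35 over the PFC (adjusted p = 1.2e-05) and by 1.27 ± 0.32 over the striatum (adjusted p = 0.011). Plk1, Cdca3 and Melk rose over the PFC by 1.95, 1.51 and 1.58.

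The chromosomal passenger complex, which corrects faulty attachments and later acts in cytokinesis, was higher in the midbrain for 3 of 3 genes in both comparisons. Aurkb, its kinase, ranged from 2.53 to 6.91 CPM in the midbrain (median 3.20), 0.729 to 2.73 in the striatum (median 1.41) and 0.261 to 2.36 in the PFC (median 0.950). No midbrain sample fell into the PFC range, and the change was 1.72 ± 0.29 over the PFC (adjusted p = 0.00010) and 1.22 ± 0.28 over the striatum (adjusted p = 0.0047). Birc5, survivin, rose by 2.43 ± 0.39 and 1.42 ± 0.36 (adjusted p = 3.2e-05 and 0.010), and Cdca8, borealin, by 1.09 ± 0.21 and 0.64 ± 0.21 (adjusted p = 0.00069 and 0.047).

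Transcripts of the checkpoint were divided. Bub1 and Bub1b, its kinase and pseudokinase, rose over the PFC by 2.39 ± 0.57 and 1.21 ± 0.27 (adjusted p = 0.0052 and 0.0030), and Bub1b also over the striatum (0.85 ± 0.26, adjusted p = 0.041). Ttk, the kinase at the head of the checkpoint, was listed at 0.557 ± 0.494, 0.415 ± 0.240 and 0.336 ± 0.388 CPM in the midbrain, striatum and PFC and passed no test (midbrain over PFC 0.77 ± 0.56). Mad2l1, which binds and holds back Cdc20, was the most abundant checkpoint gene, ranging from 3.90 to 8.31 CPM in the midbrain (median 7.09), 5.47 to 10.5 in the striatum (median 7.16) and 4.75 to 13 in the PFC (median 6.70). These ranges lay over each other, with a log2 difference of -0.15 ± 0.14 between midbrain and PFC (adjusted p = 0.69, higher in 5 of 11 mice).

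The partners that drive exit from mitosis, Cdc20, the activator of the anaphase-promoting complex, and Ube2c, its ubiquitin-conjugating enzyme, were both higher in the midbrain in both comparisons. Cdc20, whose promoter carries both motifs, ranged from 4.05 to 7.5 CPM in the midbrain (median 6.67), 2.15 to 5.15 in the striatum (median 2.81) and 0.428 to 3.37 in the PFC (median 1.72). It rose by 1.81 ± 0.24 over the PFC (adjusted p = 1.1e-06, 11 of 11 mice) and by 0.94 ± 0.22 over the striatum (adjusted p = 0.0063, 12 of 12 mice), and its striatum level stood 0.88 ± 0.23 above the PFC (adjusted p = 0.064). Ube2c ranged from 1.30 to 5.01 CPM in the midbrain (median 2.79), 0.524 to 2.38 in the striatum (median 1.10) and 0.104 to 1.26 in the PFC (median 0.525). For both genes every midbrain sample lay above every PFC sample. Ube2c rose by 2.33 ± 0.33 over the PFC (adjusted p = 5.1e-06) and by 1.34 ± 0.31 over the striatum (adjusted p = 0.0047).

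**Figure D4:**
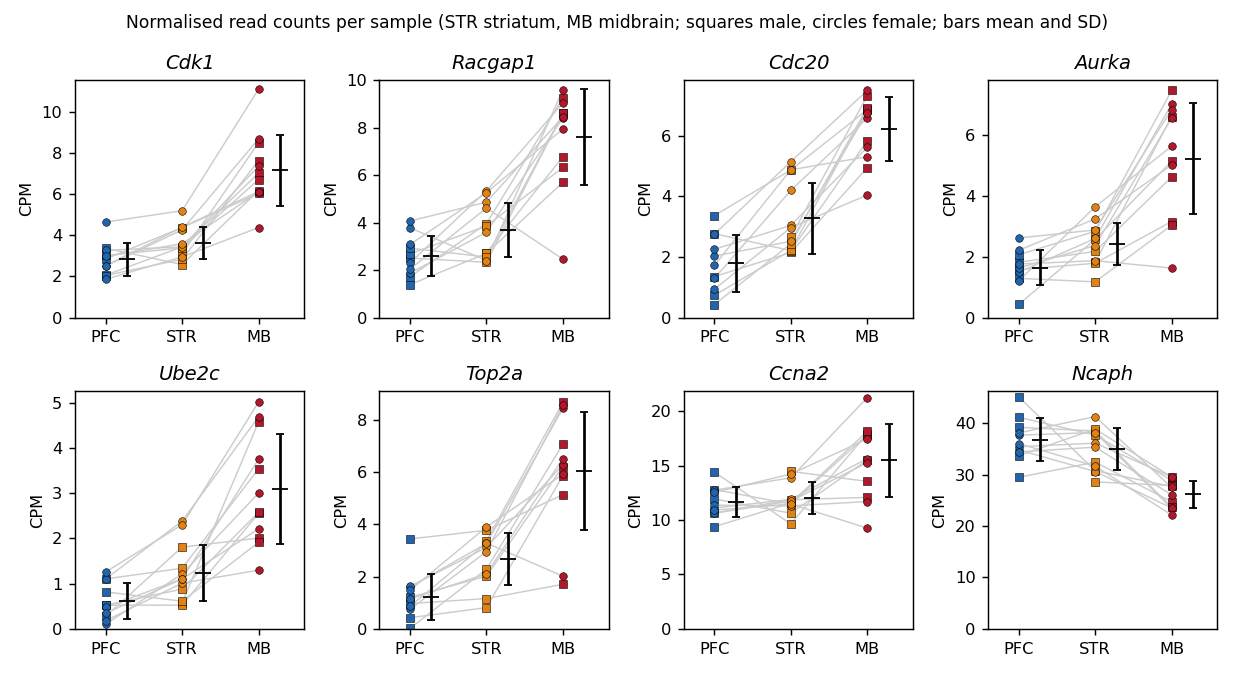
CPM per sample (y axis) of 8 mitosis genes in the PFC, striatum (STR) and midbrain (MB), with lines joining samples of a mouse, squares for males, circles for females and bars for the mean and SD. Cdc20 and Ube2c are higher in every midbrain sample than in any PFC sample, while Ncaph is lower in the midbrain, at 26.2 against 36.8 CPM.

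Of the 7 kinetochore genes, 5 were higher in the midbrain than in the PFC (median 1.66) and 3 than in the striatum (median 0.57). Cenpa, the histone H3 variant that marks centromeres, ranged from 2.55 to 6.42 CPM in the midbrain (median 4.35), 1.75 to 4.44 in the striatum (median 2.6) and 1.67 to 3.72 in the PFC (median 2.98). The ranges overlapped, and Cenpa rose by 0.64 ± 0.16 over the PFC (adjusted p = 0.0078, 10 of 11 mice) and by 0.57 ± 0.16 over the striatum (adjusted p = 0.018, 11 of 12 mice). The Ndc80 complex, which grips the microtubule, was represented by Nuf2, Spc24, Spc25 and Ndc80, which rose over the PFC by 2.41, 1.86, 1.06 and 1.66. For Ndc80 the midbrain values of 0, 1.35 and 2.74 CPM spanned the PFC values of 0, 0.477 and 1.18, it was higher in 8 of 11 mice, and its adjusted p of 0.044 became 0.093 with the mouse as a block. Cenpe, a kinetochore motor, was under 3 counts in 8 of 12 midbrain, 2 of 12 striatum and 10 of 11 PFC samples, and no fold is given for it. Cenpf was at 0.542 ± 0.281, 0.429 ± 0.207 and 0.60 ± 0.237 CPM and passed no test.

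Genes of chromosome structure had the lowest median of the roles, with 3 of 6 risen and 1 fallen in the midbrain relative to the PFC and a median of 0.60, and 1 higher and 1 lower than in the striatum. Top2a, the topoisomerase that untangles sister chromatids, ranged from 1.71 to 8.68 CPM in the midbrain (median 6.26), 0.816 to 3.90 in the striatum (median 3.04) and 0.0215 to 3.45 in the PFC (median 1.15). It rose by 2.31 ± 0.35 over the PFC (adjusted p = 1.7e-05, 11 of 11 mice) and by 1.19 ± 0.33 over the striatum (adjusted p = 0.019), and in 11 of 11 mice its striatum value exceeded that of the PFC (adjusted p = 0.12). Mki67, the source of the proliferation antigen Ki-67, was low everywhere, ranging from 0 to 0.960 CPM in the midbrain (median 0.431), 0 to 0.650 in the striatum (median 0.348) and 0 to 0.188 in the PFC (median 0.0835), where 4 of 11 samples were under 3 counts. Its fitted change was 2.43 ± 0.61 over the PFC (adjusted p = 0.0095, 9 of 11 mice) and 0.40 ± 0.55 over the striatum (adjusted p = 0.76).

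Condensin, the ring complex that compacts chromosomes, had subunits called in opposite directions. Ncaph, its kleisin subunit (chr2:127103809-127133954, GRCm38, minus strand), ranged from 22.1 to 29.5 CPM in the midbrain (median 26.8), 28.6 to 41.3 in the striatum (median 35.7) and 29.5 to 45.1 in the PFC (median 36). The highest midbrain sample just reached the lowest PFC sample, and the ranges of the midbrain and striatum overlapped at the same level. It fell by 0.49 ± 0.07 on the log2 scale in the midbrain relative to the PFC (adjusted p = 5.5e-06) and by 0.42 ± 0.07 relative to the striatum (adjusted p = 9.2e-05), and was lower in the midbrain of every mouse in both comparisons. Ncapg, another subunit of the same complex, rose over the PFC by 0.86 ± 0.20 (adjusted p = 0.0048). The shared ring subunits Smc2 and Smc4 were at 7.06 ± 1.71 and 4.02 ± 1.51 CPM in the midbrain and 5.64 ± 1.28 and 3.34 ± 0.869 in the PFC, with changes of 0.34 ± 0.14 and 0.27 ± 0.20 that did not pass (adjusted p = 0.18 and 0.57).

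Of the 7 spindle genes, 5 were higher in the midbrain than in the PFC (median 1.98) and 2 than in the striatum. Nusap1, which bundles spindle microtubules near chromosomes, ranged from 0.886 to 4.84 CPM in the midbrain (median 2.6), 0.369 to 1.70 in the striatum (median 0.980) and 0.0835 to 1.38 in the PFC (median 0.465), and rose by 2.2 ± 0.34 and 1.41 ± 0.32 (adjusted p = 1.9e-05 and 0.0042). Tacc3, which stabilises spindle fibres, ranged from 7.02 to 13.4 CPM in the midbrain (median 8.78), 5.02 to 9.26 in the striatum (median 7.32) and 1.57 to 7.86 in the PFC (median 6.04). Its ranges overlapped, and it rose by 0.85 ± 0.16 over the PFC (adjusted p = 0.00031, 11 of 11 mice) but not past the threshold over the striatum (0.39 ± 0.15, adjusted p = 0.12). The motors Kif11 and Kif22 and the hyaluronan receptor Hmmr rose over the PFC by 2.08, 2.23 and 1.98. Kif2c, a microtubule depolymerase, had its lowest mean in the striatum (1.57 ± 0.610 CPM, against 1.80 ± 0.581 in the PFC and 3.03 ± 1.22 in the midbrain) and rose over the striatum (0.95 ± 0.26, adjusted p = 0.017), with 0.75 ± 0.26 over the PFC (adjusted p = 0.080). Tpx2, an activator of Aurka, had a fitted change of 1.25 ± 0.45 over the PFC (adjusted p = 0.095).

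Cytokinesis genes rose over the PFC for 5 of 6 (median 1.59) and over the striatum for 2. Racgap1, a part of the central spindle, ranged from 2.46 to 9.59 CPM in the midbrain (median 8.43), 2.33 to 5.34 in the striatum (median 3.73) and 1.39 to 4.07 in the PFC (median 2.51). Apart from mouse 12 at 2.46 CPM all midbrain samples lay above the ranges of both other regions, and Racgap1 rose by 1.59 ± 0.19 over the PFC (adjusted p = 1.5e-07, 11 of 11 mice) and by 1.07 ± 0.18 over the striatum (adjusted p = 0.00013, 11 of 12 mice). Prc1, which bundles the central spindle, rose by 2.13 ± 0.38 and 1.2 ± 0.35 (adjusted p = 0.00016 and 0.030). Kif20a, a motor of the central spindle, was the most abundant of the group and had the smallest change, with 5.82, 9.37 and 11.1 CPM in the midbrain and 5.40, 7.46 and 9.01 in the PFC, a change of 0.33 ± 0.10 (adjusted p = 0.044, 9 of 11 mice). Kif23 rose over the PFC by 2.14 ± 0.61 (adjusted p = 0.024), Ect2 by 0.83 ± 0.26 (adjusted p = 0.0496, and 0.0015 with the mouse as a block), and Anln, anillin, had a fitted change of 1.60 ± 0.52 (adjusted p = 0.055, and 0.024 with the block).

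The exons of 8 of the genes overlapped exons of another gene of the table, and 4 of these shared more than 10% of their exon length with it, on the opposite strand. Kif20a shared 29.3% with Cdc23, Ncapg 13.4% with Lcorl, Ccna2 12.5% with Exosc9 and Prc1 11.1% with Rccd1. Ube2c shared 22.8% with Tnnc2, on the opposite strand and not among the genes of the table. The sources used here do not state that counting used strand, so reads of such pairs may not be told apart. Of the 8 neighbours in the table, Oip5, which shares 4.24% of the exons of Nusap1, was higher in the midbrain than in the PFC (2.90 ± 0.71, adjusted p = 0.0071). The other 7 did not pass, and the 4 with the longest overlaps had changes of 0.08 ± 0.09 for Cdc23 (53.0 CPM in the midbrain), -0.11 ± 0.09 for Lcorl, 0.01 ± 0.07 for Exosc9 and -0.11 ± 0.19 for Rccd1.

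The genes also followed each other from sample to sample. For the 33 genes with a mean of at least 1 CPM, log2 CPM was correlated with the mean of the others over the 35 samples, in which regions of a mouse share the animal. The median Pearson r was 0.74 and the median Spearman rho 0.79, and 28 of the 33 had an r over 0.5, as had 3.38% of 7430 other genes in the same range of CPM. With the subgroup means of region and sex subtracted, the median r was 0.55 and 19 of the 33 were over 0.5, as were 1.18% of the other genes. Top2a (0.91), Aurka (0.89) and Ube2c (0.88) followed the rest most closely. Ncaph (-0.60), Mad2l1 (-0.10) and Smc4 (0.21) had the lowest values.

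Among 12264 other genes with a mean of at least 1 CPM, the 10 whose log2 CPM was most like the mean of the mitosis genes over the 35 samples were Asns (r = 0.87), Nek2 (0.86), Lgals3 (0.86), Emp3 (0.85), Dna2 (0.84), Anxa5 (0.84), Pimreg (0.83), Clec7a (0.81), Hdac9 (0.81) and Rrm2 (0.80). These values include the differences between regions. After subtracting the means of region and sex they were 0.62, 0.69, 0.49, 0.42, 0.57, 0.35, 0.52, 0.42, 0.52 and 0.49 in the same order. Nek2 is a centrosomal kinase of mitosis, Rrm2 a subunit of the enzyme that makes deoxynucleotides, and Dna2 a nuclease of DNA replication. Asns makes asparagine, Lgals3 encodes galectin-3 and Clec7a the receptor dectin-1.

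Sex made no difference that passed the test. None of the 44 genes differed between females and males with edgeR, where 0.339% of all genes did, and none did with DESeq2, limma-voom or counts summed per mouse. An unadjusted p under 0.05 was reached by 4 of the 44, and by 1704 of all 21236 genes. The 4 were Cenpa, Ndc80, Smc4 and Tacc3, each higher in females. Cenpa was at 2.87 ± 0.916 CPM in males and 3.78 ± 1.26 in females (0.38 ± 0.13 on the log2 scale, adjusted p = 0.28). Tacc3 was at 6.77 ± 2.64 and 7.83 ± 2.02 CPM (0.28 ± 0.13, adjusted p = 0.55) and Ndc80 at 0.660 ± 0.594 and 1.04 ± 0.664 (0.92 ± 0.41, adjusted p = 0.55). Summed over the 44 genes, midbrain samples had 187 ± 23.3 CPM in males and 190 ± 38.8 in females (SD, n = 6 each). Striatum samples had 126 ± 12.1 CPM in males and 144 ± 14.8 in females (n = 6 each). PFC samples had 111 ± 16.3 CPM in males (n = 5) and 116 ± 11.8 in females (n = 6).

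Within regions the count was likewise 0 with edgeR in the midbrain, the striatum and the PFC, where 0.0377%, 0.033% and 0.0659% of all genes differed by sex. Unadjusted p-values under 0.05 were found for 2 genes in the midbrain (Cenpa and Cenpe), 1 in the striatum (Racgap1) and 2 in the PFC (Ndc80 and Tacc3). Over all 21236 genes the counts were 1172, 581 and 1264. Cenpe was under 3 counts in most midbrain samples. In the striatum the fitted level was higher in females for 40 of the 44 genes, with a median log2 difference of 0.32, against 26 of 44 and 0.08 in the midbrain and 28 of 44 and 0.14 in the PFC. The difference of the sex effect between regions was tested with an interaction term. With edgeR it was passed by 0 of the 44 genes and by 0% of all genes. An unadjusted p under 0.05 was reached by 0 of the 44, and by 632 of all 21236 genes. The other tools were not run for these within-region tests.

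Other genes of the cell cycle were counted for comparison. Of 76 further mitotic genes, 20 were higher in the midbrain than in the PFC and none lower, with a median log2 fold change of 0.67, and 8 were higher than in the striatum. Pimreg, a regulator of the metaphase to anaphase transition, had 2.66 ± 1.12, 1.21 ± 0.570 and 0.448 ± 0.519 CPM in the midbrain, striatum and PFC (SD, n = 12, 12 and 11) and rose by 2.65 ± 0.45 over the PFC (adjusted p = 0.00010). Kntc1, a kinetochore protein, rose by 1.72 ± 0.27 (adjusted p = 2.3e-05). Cks2, a partner of Cdk1, had its lowest mean in the striatum, at 8.47 ± 2.90 CPM against 17.9 ± 3.67 in the midbrain, and rose by 1.08 ± 0.16 over it (adjusted p = 2.9e-05). Ska1 was the only one of the 76 to rise in the striatum over the PFC (adjusted p = 0.015), at 0.0957 ± 0.0787 and 0.00577 ± 0.0136 CPM.

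Of 30 genes of DNA replication, 7 were higher in the midbrain than in the PFC and 5 than in the striatum, with none lower and medians of 0.32 and 0.28. Mcm5, a subunit of the replicative helicase, had 19.9 ± 4.06, 14.2 ± 2.68 and 12.4 ± 2.51 CPM in the midbrain, striatum and PFC and rose by 0.70 ± 0.11 over the PFC (adjusted p = 2.2e-05). Rrm2 had 4.68 ± 1.23, 1.87 ± 0.591 and 0.715 ± 0.760 CPM and rose by 2.74 ± 0.51 (adjusted p = 0.00034). Of 26 genes of the G1 phase and of cell cycle arrest, 7 were higher than in the PFC and 4 than in the striatum, with a median of 0.13 against the PFC. E2f1 and E2f2, transcription factors that start S phase, rose over the PFC by 1.17 ± 0.21 and 1.13 ± 0.21 (adjusted p = 0.00021 and 0.00034). Cdkn1a, the arrest factor p21, was at 238 ± 70.4 CPM in the midbrain, 108 ± 41.4 in the striatum and 133 ± 52.1 in the PFC, and rose over the striatum by 1.14 ± 0.21 (adjusted p = 0.00069). At a mean of at least 1 CPM, 26 of 33 mitosis genes were higher in the midbrain than in the PFC, beside 8 of 38 further mitotic genes, 7 of 25 replication genes, 5 of 22 genes of G1 and arrest, and 574 of all 12297 genes.

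**Figure D5:**
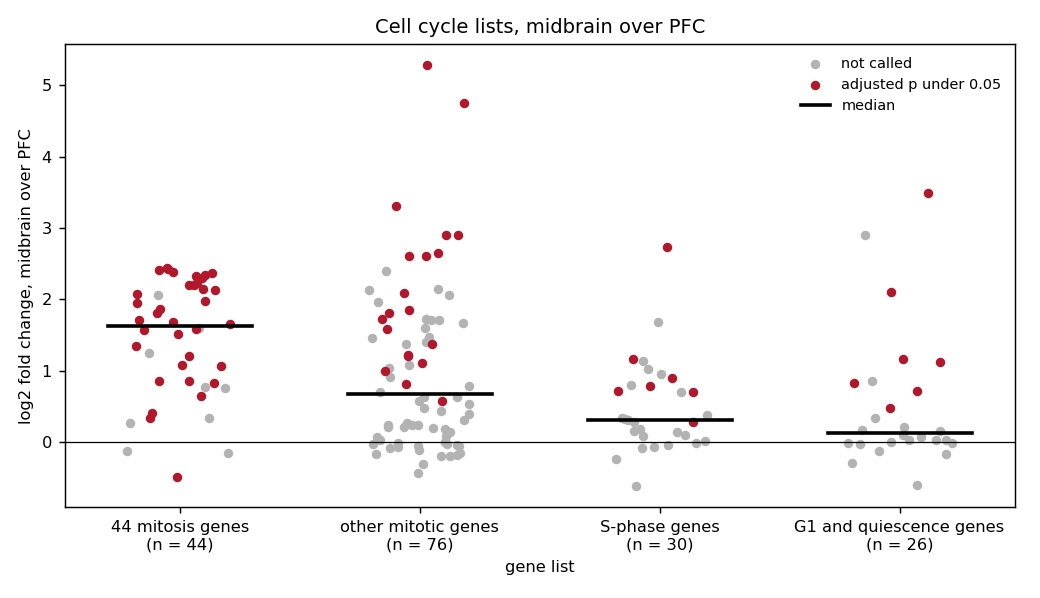
Fitted log2 fold changes of midbrain over PFC (y axis) of the genes of each cell cycle list (x axis), 1 point per gene, red at an adjusted p under 0.05, with a line at the median. The median is 1.63 for the 44 mitosis genes and 0.67 for 76 further mitotic genes. It is 0.32 for 30 replication genes and 0.13 for 26 genes of G1 and arrest. Members and lists were chosen with earlier results of these data known.

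Transcripts of other cell types were present, and some moved with region. The microglial markers P2ry12, Sall1, Fcrls and Siglech fell in the midbrain relative to the PFC. Lymphocyte markers, 6 of 10 in the table, summed to 0.443 to 13.9 CPM in the midbrain, 0.350 to 4.31 in the striatum and 0.202 to 2.38 in the PFC, with 2 (Cd4 and Cd79a) higher than in the PFC. The others, Cd3e, Cd3d, Cd8a and Ncr1, were not among the genes of the table. Border macrophage markers, 7 of 8 in the table, summed to 2.13 to 130.9 CPM in the midbrain, 3.83 to 11.7 in the striatum and 3.21 to 11.1 in the PFC. Of these, Ms4a7 and Clec4n were higher in the midbrain than in the PFC, and the highest sum was in the midbrain of mouse 6. Monocyte and neutrophil markers, 7 of 9 in the table, summed to 2.24 to 11.8 CPM in the midbrain, 2.80 to 6.34 in the striatum and 2.15 to 26 in the PFC. Cd44, an adhesion receptor, was higher in the midbrain (3.22 CPM, against 0.606 in the PFC and 0.989 in the striatum, adjusted p = 0.00014 and 0.0048), Ccr2, a chemokine receptor, was lower (adjusted p = 0.00024 and 0.030), and Ly6c2 was higher than in the striatum (adjusted p = 0.034). Without the midbrain sample of mouse 6, without that of mouse 3, which had the most lymphocyte transcripts, and without the PFC sample of mouse 1, which had the most monocyte transcripts, 32 mitosis genes each time were higher in the midbrain than in the PFC, and 19, 17 and 23 higher than in the striatum.

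Neural progenitor markers, which mark another dividing population of the brain, summed to 2.36 ± 1.05 CPM in the midbrain, 6.45 ± 3.09 in the striatum and 2.73 ± 2.86 in the PFC. Dcx, Dlx1 and Igfbpl1 had 0 counts in all 12 midbrain samples, and Dcx, Sox11, Dlx1, Dlx2 and Igfbpl1 were lower in the midbrain than in either other region. Nes alone of the 9 was higher in the midbrain than in the PFC (adjusted p = 0.028), and none was higher than in the striatum. Oligodendrocyte precursor markers, 8 of 8 in the table, summed to 5.52 ± 2.43, 8.06 ± 5.88 and 4.71 ± 3.60 CPM in the midbrain, striatum and PFC, and none passed edgeR over the PFC or the striatum (0 and 1 at an unadjusted p under 0.05). Neuronal markers summed to 5.31 ± 1.30, 8.74 ± 2.6 and 14.7 ± 5.03 CPM, of which 4 of 8 fell relative to the PFC and 4 relative to the striatum. Sums of astrocyte (237, 352 and 346), oligodendrocyte (400, 481 and 336), endothelial (28.4, 38.2 and 32.6) and erythroid (32.6, 31.1 and 9.51) markers are means in CPM for the midbrain, striatum and PFC in that order, and those of astrocytes and oligodendrocytes exceeded the sum of the 44 mitosis genes in each region. The astrocyte and oligodendrocyte sums rested largely on few genes, with Slc1a3 at 171 CPM in the midbrain, Cnp at 161 and Mbp at 129. Mbp, a myelin gene, was higher in the midbrain than in the PFC (0.67 on the log2 scale, adjusted p = 0.022). The astrocyte glutamate transporters Slc1a2 and Slc1a3 were lower there (-1.67 and -0.46, adjusted p = 0.00034 and 5.3e-07). Across the 35 samples the r of a marker sum with the mean of the mitosis genes was 0.56 for lymphocytes, 0.41 for erythroid cells, 0.35 for oligodendrocytes, 0.30 for their precursors, 0.16 for neural progenitors, -0.48 for astrocytes and -0.74 for neurons. With the means of region and sex subtracted these were 0.32, 0.36, 0.30, 0.45, 0.40, 0.15 and -0.11. The part of these cells in the levels of the mitosis genes was not tested.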

How the data were processed

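The authors sorted tdTomato-positive microglia, made libraries with a full-length cDNA kit that amplifies by PCR, checked reads with FastQC, trimmed them with Trimmomatic and aligned them to Ensembl GRCm38 with HISAT2. The deposited values are raw counts per gene. The counting tool, the annotation release and the strand setting were not given in the sources used here. The filter described for the table, at least 1 CPM in a region and sex subgroup, was not met by every gene. A mean under 1 CPM in each subgroup was found for 4 of the 44, and for 8379 of all genes in the table. Gene symbols were taken from GENCODE and matched 21103 genes.

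Here counts were scaled by TMM and tested with edgeR 4.0.16 (robust quasi-likelihood fit, R 4.3.3), with region and sex as main effects over all 35 samples, which takes the regions of a mouse as separate samples, and Benjamini-Hochberg adjustment over 21236 genes; a gene was called at an adjusted p under 0.05. The study's own test was DESeq2, which is an alternative here with version 1.42.0, beside limma-voom (limma 3.58.1) with the mouse as a random effect. Sex within regions and its interaction came from a fit with a mean per region and sex. CPM are TMM-scaled, log2 CPM use a prior count of 2, and SE is the fold change divided by the root of F. Regions came from the same animals, which pairs the samples. Deviations from group means correlated more for samples of the same mouse (mean r 0.22, 34 pairs) than of different mice (-0.043), and a fit with the mouse as a block was run. Replicates are mice. Reads carry no molecular identifiers, so the floor of 3 counts covers counting error only. The main edgeR fit was tested on simulated counts, with changes placed only in genes over 1 CPM and with no effect of the mouse. That test does not cover paired samples or changes in genes at lower levels. Full values were given for the most abundant gene of each role, the 6 with the smallest p in each pair of regions, the 3 with the smallest p for sex, and called genes that went against their role; other genes are given by their change. The rule for the members names genes and uses no measured value, but the members, lists and tests were chosen with earlier results of these data known.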

Additional observations from a re-analysis of the deposited data

Results flagged for a closer look

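Single samples that stood far from their group were looked for in 22 values over 132 groups of 5 or 6 samples, and 8 groups had one; chance gives about 1 in 20. In the midbrain of females, mouse 12 was lowest for Racgap1 (2.46 CPM, the next 7.94) and for Aurka (1.63 CPM, the next 5.01). In the midbrain of males, mouse 3 was highest for Ccnb1 (6.84 CPM, the next 2.88). In the striatum, mouse 3 was highest of the males for Mad2l1 (10.5 CPM, the next 7.71), mouse 9 highest of the males for Cdc20 (4.87 CPM, the next 2.65), and mouse 8 lowest of the females for Nusap1 (0.517 CPM, the next 1.35). In the PFC, Cenpe was found in mouse 9 among the males (0.0526 CPM) and in mouse 8 among the females (0.141 CPM), with 0 counts in the others of each group.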

How the results depend on the processing

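Of 285 alternative counts and sums, 264 stayed within 1.5 times their value or within the spread of the samples. These include counts of 0 that stayed 0, as for sex, and fits that left out a single mouse and share the rest. A count of genes has no direction to reverse. No difference in summed CPM changed sign, and the fold change of a called gene was reversed for 0 against the PFC and 0 against the striatum. Requiring at least 10 counts in every sample left 19 of the 44 genes, of which 14 had an effect of region, 14 were higher in the midbrain than in the PFC and 11 than in the striatum. Mice 1 to 6 alone gave 17, 15 and 4, and mice 7 to 12 alone, with as few animals, 18, 20 and 5. Limma-voom called 2 genes lower in the midbrain than in the striatum. For striatum over PFC, where edgeR called 0, DESeq2 called 4, limma-voom 9, the replicate block (mouse) 4, edgeR's own filter of low counts 1, the fit without the midbrain sample of mouse 12 (chosen after seeing the data) 1, and the study's cut-offs (a region effect by adjusted p, then unadjusted p and fold change for each pair) 19. Its cut-offs for sex, by unadjusted p and fold change, gave 4 genes for sex and 5 for sex within a region. The cause of these differences was not tested.

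Leaving out each mouse in turn gave 29 to 33 genes for region, 28 to 34 for midbrain over PFC, 15 to 22 for midbrain over striatum and 0 to 2 for striatum over PFC (1 without mouse 5, 1 without mouse 8 and 2 without mouse 9). The difference in summed CPM ranged from 71.1 to 79.4, 49.8 to 59.8 and 19.6 to 24.2. Single calls ended without some mouse: against the PFC those of Kif23 (mouse 8), Melk (8 or 11), Plk1 (8, 10 or 11), Hmmr (2, 7, 9 or 11), Ect2, Ndc80 and Kif20a (any of 8 or more mice), and against the striatum those of Cenpa (mouse 3), Ccnb2 (2 or 3), Spc24 (1, 2, 3 or 11), Prc1 (2, 3, 7, 8 or 11), and Bub1b, Ccnb1 and Cdca8 (any of 6 or more mice). With the replicate block, 34 genes were higher in the midbrain than in the PFC, with Ndc80 lost and Anln gained, and 21 than in the striatum. Of the 35 called genes against the PFC, 13 were called under every alternative that tested them, and of the 22 against the striatum 3 (Cdk1, Aurka and Ncaph). DESeq2, limma-voom and the block were not run for sex within a region. At a mean under 1 CPM, 8 of 11 genes were higher in the midbrain than in the PFC, beside 200 of all 8939 genes at that level. In the other lists at that level, 12 of 38 further mitotic genes, 0 of 5 replication genes and 2 of 4 genes of G1 and arrest were higher.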
